A study of Mus musculus with 36 samples.

Results

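The cells studied were mouse lung pericyte-like cells, and the comparison is between 24 h and 6 h of exposure to injured bronchoalveolar lavage fluid (BALF), the fluid washed out of the airspaces of an injured lung. It rests on 12 of the 36 libraries of the study, 6 of injured BALF at 24 h (3 female and 3 male) and 6 of injured BALF at 6 h (3 female and 3 male), chosen by the treatment and time in their names. The cells were grown out of digested lungs, freed of cells carrying CD31, CD45 or CD326 (markers of endothelium, leukocytes and epithelium), kept for the receptor PDGFRβ and cultured before exposure. The treatment was reduced-serum medium mixed with an equal volume of injured BALF. 12 libraries in uninjured BALF, mixed in the same way, and 12 in media only, where buffered saline took the place of lavage fluid, were taken at the same times and serve for comparison. All cells were cultured and reseeded after 1 selection scheme, and no strain, age, allele or kind of injury is given in the labels. Whether the replicates stem from different mice or different wells is not labelled, so p-values measure the spread between these libraries, which may be technical.

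Pericytes wrap small vessels, hold contractile proteins and lay down basement membrane, and in the lung they lie close to the alveolar wall. Injury signals reach such cells through receptors that release the transcription factor NF-kB, which switches on cytokine, chemokine and adhesion genes together with their own inhibitors. Many of these early mRNAs are short-lived, whereas secreted acute phase proteins usually accumulate later. Sterol synthesis genes answer to the factor SREBP when cell sterol is low, and genes of glycolysis answer to the hypoxia-inducible factor HIF.

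Values are given in CPM, a gene's counts relative to the library total after scaling by edgeR's TMM factors, as the lowest, median and highest of the 6 libraries of a group. A log2 fold change is 24 h over 6 h, the mean of the female and the male change, with its standard error after ±, and every change, rise or fall is given on this scale. Genes at an adjusted p under 0.05 in edgeR's quasi-likelihood test (Benjamini-Hochberg over 15901 genes) are called changed. Libraries of injured BALF held 17134840 to 33023570 counts. Pdgfrb, which encodes the receptor used for selection, was read at 303, 482 and 618 CPM at 24 h, against 256, 436 and 610.5 CPM at 6 h, and did not pass the test (edgeR adjusted p = 0.778).

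Male replicate 3 stood apart in summed mesothelial markers, with 188 CPM at 24 h and 246.2 CPM at 6 h, against 25.9 to 70.5 CPM and 32.9 to 78.8 CPM in the other 5 libraries of each time. Its summed endothelial markers were 355 CPM at 24 h and 358 CPM at 6 h, and the other 10 libraries lay between 196 and 272 CPM. Summed epithelial markers were also highest in male replicate 3, with 15.49 CPM at 24 h and 29.08 CPM at 6 h. In the other libraries they were 1.42 to 4.99 CPM and 2.565 to 6.12 CPM. Krt8 is on both the epithelial and the mesothelial list. Leaving out both libraries of male replicate 3 gave 3218 called genes, 1477 up and 1741 down, and 3138 of them were among the calls of all 12 libraries, while 3 of the named results lost their call. Libraries numbered 1 and 2 of a group lay close together, with 6.33 to 12.7% as their biological coefficient of variation, and other pairs at 21.6 to 34.3%. Results are therefore given also with libraries 1 and 2 of each group summed, where this moves a count above 5 by more than 1.5 times or ends the call of a named gene.

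Between 24 and 6 h in injured BALF all 24 measured sterol synthesis genes, 10 of 11 fatty acid synthesis genes and 20 of 26 genes of glycolysis and the response to low oxygen rose. All 22 ribosome biogenesis genes and 6 of 8 inflammatory cytokine genes fell. Part of other lists changed, with rises in 6 of 14 acute phase and defence genes and 14 of 29 G2 and mitosis genes, and falls in 7 of 11 leukocyte adhesion genes, 7 of 16 contractile genes and 10 of 24 genes of the TGF-beta family. Of 15901 genes tested, 4295 changed (27.0%), 2032 upward (12.8%) and 2263 downward (14.2%). At least 2-fold changes were 867 (5.45%), 538 upward (3.38%) and 329 downward (2.07%). All 4295 called genes had the same direction in female and male libraries. The call rests on the mean of the female and male changes, so opposite directions are unlikely among called genes by construction. The median log2 fold change over all genes tested was 0.01. With libraries 1 and 2 summed, 2898 genes were called, 1347 up and 1551 down, and 2836 of them were shared with the 4295. Upper quartile scaling turned the split to 2466 up and 1809 down, 57.7% upward against 47.3% with TMM.

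In 1075 genes (6.76% of those tested) every 24 h library lay above every 6 h library, and in 1409 (8.86%) every 24 h library lay below. No gene passed edgeR's test of a difference in change between female and male libraries (0 called, 181 at an unadjusted p under 0.05), and DESeq2 called 1. With 3 libraries per sex and time this does not show that the changes were equal. Genes were grouped in 57 lists by function, and a count of called genes in a list is a description. Of 22 such counts above 5, leaving out 1 injured BALF library moved 3 by more than 1.5 times and summing libraries 1 and 2 moved 6. Of 58 counts of 5 or fewer, 32 and 30 moved by that much, and these small counts are given as values only.

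**Figure D1:**
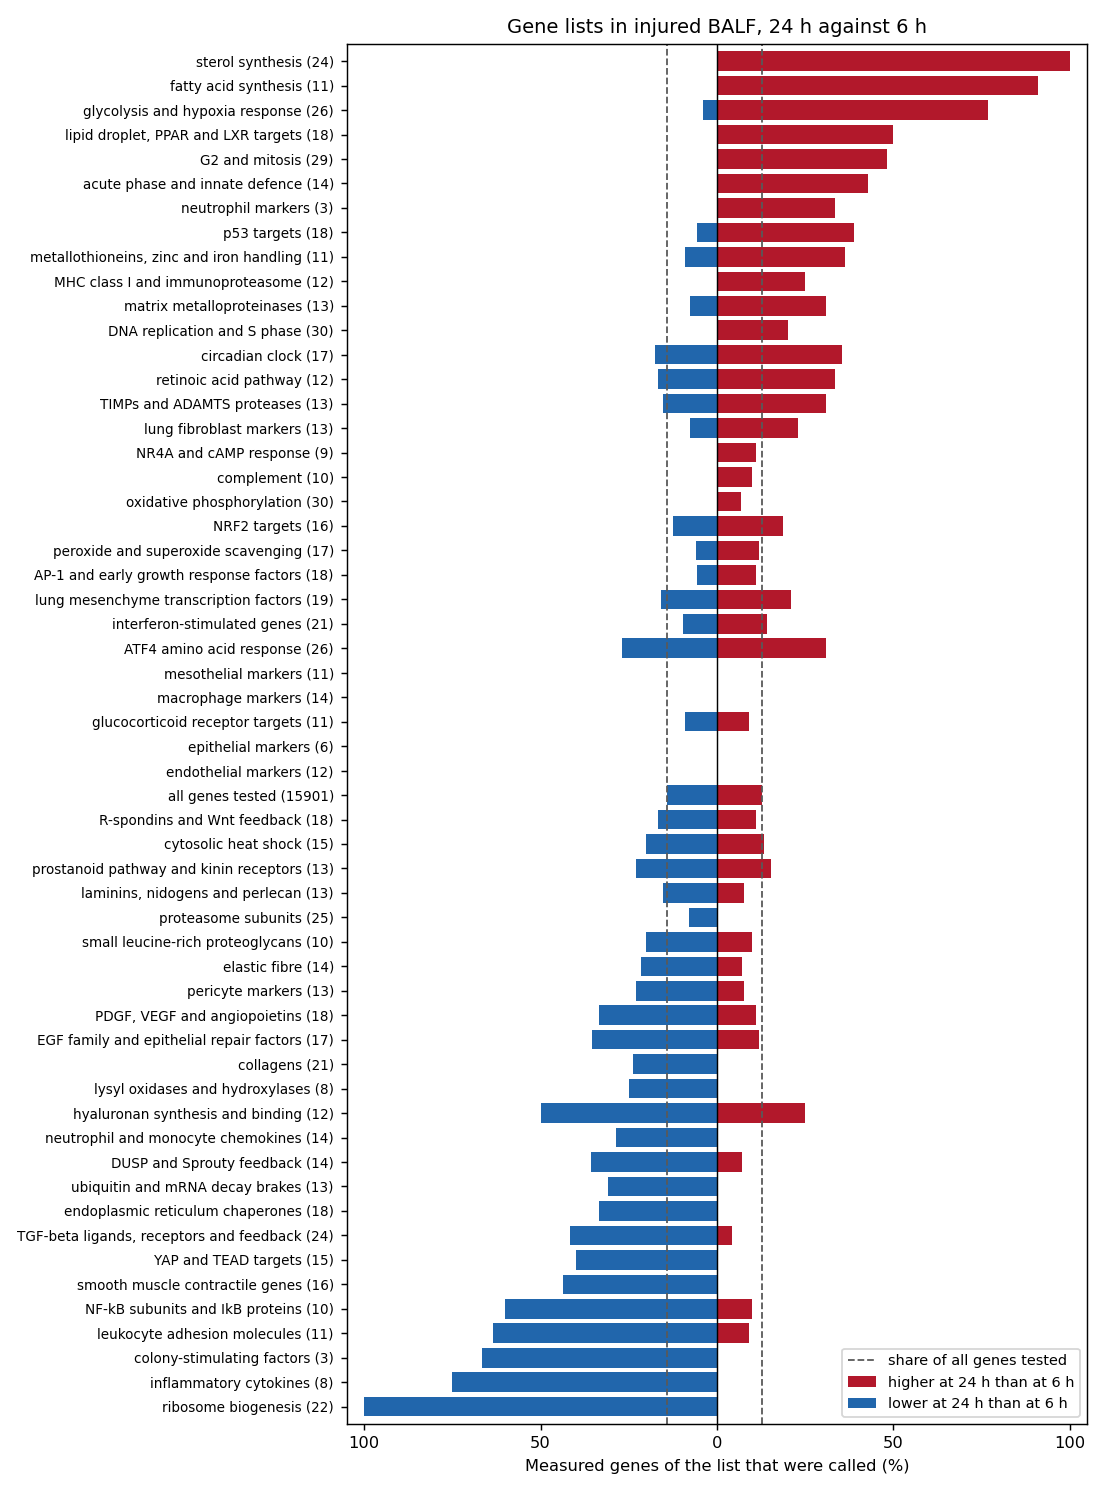
Share of the measured genes of each list that were called higher (red, right of 0) or lower (blue, left of 0) at 24 h than at 6 h in injured BALF, with the number measured in brackets and dashed lines at the 12.8% and 14.2% of all genes tested. The sterol list is wholly red, with 24 of 24 genes up, and the ribosome biogenesis list wholly blue, with 22 of 22 genes down.

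Some genes for acute phase and defence proteins, most of them secreted, rose, and Hp, Lcn2 and Saa3 were among the 12 largest rises. Of 14 measured members of the acute phase and innate defence list, 6 rose, 0 fell and 8 did not pass, with a median log2 fold change of 1.12. Saa3, serum amyloid A of extrahepatic tissue, was read at 116, 221 and 430.0 CPM at 24 h, against 18.9, 27.6 and 60.4 CPM at 6 h, which gives a fold change on the log2 scale of 2.89 ± 0.50 (edgeR adjusted p = 8.4e-05). Lcn2, lipocalin, which binds the iron carriers of bacteria, was read at 41.7, 57.0 and 133 CPM at 24 h, against 2.30, 9.48 and 12.8 CPM at 6 h, a change of 3.06 ± 0.62 (edgeR adjusted p = 0.000528). Hp, haptoglobin, which binds free haemoglobin, stood at 1.88, 7.73 and 26.8 CPM at 24 h, against 0.105, 0.903 and 1.48 CPM at 6 h, a change of 3.63 ± 0.66 (edgeR adjusted p = 0.000148). In these 3 genes every 24 h library lay above every 6 h library.

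Cp, ceruloplasmin, a copper-carrying ferroxidase, was read at 82.5, 132 and 179 CPM at 24 h, against 19.0, 31.6 and 57.4 CPM at 6 h, and rose by 1.98 ± 0.39 (edgeR adjusted p = 0.000405). Steap4, a metalloreductase of inflamed tissue, was read at 25.3, 52.0 and 73.2 CPM at 24 h, against 6.61, 14.5 and 19.7 CPM at 6 h, and rose by 1.86 ± 0.48 (edgeR adjusted p = 0.00452). The 24 h libraries lay above the 6 h libraries in both genes. Nos2, the inducible nitric oxide synthase, stood at 17.5, 39.4 and 271 CPM at 24 h, against 14.6, 20.2 and 51.7 CPM at 6 h, a change of 1.39 ± 0.48 (edgeR adjusted p = 0.032). Its groups overlapped, and female 24 h replicate 3 held the 271 CPM: without that library the adjusted p was 0.541, with libraries 1 and 2 summed it was 0.127, with the replicate number as a block 0.0653, and 7 of the 12 single libraries ended the call when left out. C3, the central complement protein, was read at 134, 255 and 628 CPM at 24 h, against 23.2, 73.4 and 99.0 CPM at 6 h, a change of 2.17 ± 0.62 (edgeR adjusted p = 0.01), the 1 gene of 10 measured complement genes that passed. Its 24 h libraries lay above its 6 h libraries, and the call ended without female 24 h replicate 3 (adjusted p = 0.055) and with libraries 1 and 2 summed (0.0651).

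2 serine protease inhibitors of the Serpina3 cluster were also among the strongest rises. Serpina3g was read at 19.0, 43.2 and 109 CPM at 24 h, against 4.30, 10.5 and 16.3 CPM at 6 h, a change of 2.21 ± 0.44 (edgeR adjusted p = 0.000451). Serpina3i was read at 3.78, 9.76 and 14.8 CPM at 24 h, against 0.482, 1.505 and 2.26 CPM at 6 h, a change of 2.68 ± 0.51 (edgeR adjusted p = 0.000249). The times did not overlap in either gene, but the cluster holds near-identical copies, among which reads may be split, and Serpina3n of the same cluster did not pass the test. Of 12 measured MHC class I and immunoproteasome genes, 3 rose and 0 fell, and of 21 interferon-stimulated genes 3 rose and 2 fell, with medians of 0.14 and 0.82. The called shares, 25% and 23.8%, lie near the 27.0% of all genes tested. Without single libraries the rises ranged over 0 to 4 in the first list and over 2 to 9 in the second. In the 12 injured BALF libraries alone with the replicate block 14 interferon-stimulated genes rose.

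The inflammatory cytokines were lower at 24 h. Of 8 measured cytokine genes 6 fell and 0 rose, with a median log2 fold change of -1.82 and a summed level of 260.5 to 550.0 CPM at 24 h, against 1012 to 1595 CPM at 6 h. Il6, which drives the acute phase response, was read at 112, 171 and 259 CPM at 24 h, against 447, 623 and 811 CPM at 6 h, a change of -1.78 ± 0.40 (edgeR adjusted p = 0.00148). Lif, a cytokine of the same family, stood at 73.2, 136 and 231 CPM at 24 h, against 380.3, 570.0 and 678 CPM at 6 h, a change of -1.86 ± 0.40 (edgeR adjusted p = 0.000928). Il11, also of that family, which acts on stromal cells, stood at 2.22, 6.25 and 8.32 CPM at 24 h, against 24.9, 30.7 and 55.2 CPM at 6 h, a change of -2.62 ± 0.39 (edgeR adjusted p = 1.1e-05). No 24 h library reached the lowest 6 h library in these 3 genes.

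Tslp, an alarm cytokine of barrier tissue, was read at 2.17, 2.32 and 4.60 CPM at 24 h, against 9.64, 14.3 and 17.3 CPM at 6 h, a change of -2.20 ± 0.26 (edgeR adjusted p = 4.96e-07). Il33, a nuclear alarm cytokine released by damaged cells, was read at 1.15, 1.502 and 2.19 CPM at 24 h, against 4.53, 7.37 and 11.3 CPM at 6 h, a change of -2.27 ± 0.45 (edgeR adjusted p = 0.000416). Clcf1, a further ligand of the IL-6 family, fell by 1.25 ± 0.16 (edgeR adjusted p = 1.23e-06). The times did not overlap in any of the 3.

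Genes that call in neutrophils and monocytes fell in part. Of 14 measured chemokine genes 4 fell, 0 rose and 10 did not pass, with a median of -0.71. The called share was 28.6%, against 27.0% of all genes tested, of which 14.2% fell. Cxcl2, which draws neutrophils, was read at 5.36, 7.04 and 7.85 CPM at 24 h, against 38.4, 61.5 and 95.8 CPM at 6 h, a change of -3.24 ± 0.39 (edgeR adjusted p = 6.24e-07). Cxcl3, a chemokine of the same receptor, stood at 5.97, 7.94 and 10.7 CPM at 24 h, against 26.7, 30.6 and 39.0 CPM at 6 h, a change of -1.98 ± 0.51 (edgeR adjusted p = 0.00463). The 24 h libraries of both lay below all 6 h libraries. The other two falls were Cx3cl1, fractalkine, at -1.10 ± 0.25 (edgeR adjusted p = 0.00173), and Cxcl16, a membrane-bound chemokine, at -0.76 ± 0.20 (edgeR adjusted p = 0.00615). Ccl2, the main monocyte chemokine, was read at 798, 907 and 973 CPM at 24 h, against 1397, 1611 and 2188 CPM at 6 h. Its times did not overlap, but its change of -0.89 ± 0.36 missed the threshold (edgeR adjusted p = 0.0652), while DESeq2 gave an adjusted p of 0.0471 and edgeR on the 12 injured BALF libraries alone 8.64e-05.

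Of 3 measured colony-stimulating factor genes 2 fell. Csf2, which drives granulocyte and macrophage growth, was read at 0.916, 1.64 and 2.50 CPM at 24 h, against 6.08, 8.31 and 12.6 CPM at 6 h, a change of -2.46 ± 0.54 (edgeR adjusted p = 0.00132). Csf1, the growth factor of macrophages, stood at 1563, 2509 and 3013 CPM at 24 h, against 4026, 4327 and 4559 CPM at 6 h, a change of -0.84 ± 0.17 (edgeR adjusted p = 0.00059). Both genes were lower in every 24 h library.

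Of 11 measured genes of leukocyte adhesion molecules, 7 fell and 1 rose, with a median of -0.93 and a summed level of 1831 to 2029 CPM at 24 h, against 2955 to 4630 CPM at 6 h (4 fell with libraries 1 and 2 summed). Icam1, which leukocyte integrins bind, was read at 38.3, 48.0 and 62.5 CPM at 24 h, against 158, 186 and 320.2 CPM at 6 h, a change of -2.06 ± 0.20 (edgeR adjusted p = 1.99e-08). Vcam1, bound by monocytes and lymphocytes, was read at 752, 834 and 965 CPM at 24 h, against 1043, 1363 and 1725 CPM at 6 h, a change of -0.71 ± 0.15 (edgeR adjusted p = 0.000657), with an adjusted p of 0.0504 when libraries 1 and 2 were summed. Sele, E-selectin, usually a gene of activated endothelium, was read at 1.98, 2.69 and 5.81 CPM at 24 h, against 8.43, 15.5 and 19.2 CPM at 6 h, a change of -2.04 ± 0.45 (edgeR adjusted p = 0.00116). No 24 h library of these 3 genes reached the lowest 6 h library. None of the 12 measured endothelial markers was called, and which cells held the Sele RNA was not tested.

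Cd44, the hyaluronan receptor that is also on this list, fell by 1.34 ± 0.23 (edgeR adjusted p = 7.9e-05). Nectin2, a cell junction molecule, was the 1 that rose, by 0.44 ± 0.10 (edgeR adjusted p = 0.00115).

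Genes of NF-kB itself mostly fell. Of 10 measured genes of subunits and IkB proteins 6 fell and 1 rose, with a median of -0.74. Nfkb1, the p105 precursor subunit, was read at 111, 136 and 156 CPM at 24 h, against 206, 297 and 309 CPM at 6 h, a change of -1.02 ± 0.14 (edgeR adjusted p = 4.14e-06). Nfkb2, the precursor of the alternative pathway, was read at 72.2, 99.0 and 103 CPM at 24 h, against 163, 177 and 202 CPM at 6 h, a change of -0.95 ± 0.10 (edgeR adjusted p = 1.69e-07). Bcl3, an atypical IkB protein of the nucleus, was the exception, read at 21.1, 25.9 and 39.8 CPM at 24 h, against 11.4, 13.5 and 14.6 CPM at 6 h, a change of 1.04 ± 0.23 (edgeR adjusted p = 0.00102). The times separated in all 3 genes, downward in the first pair and upward in Bcl3.

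Of 13 measured regulators of inflammatory signalling on the ubiquitin and mRNA decay list, 4 fell and 0 rose. The 4 were Tnip1, Tnfaip3, Traf1 and Birc3. The called share was 30.8%, against 27.0% of all genes tested, of which 14.2% fell. Tnfaip3, the ubiquitin-editing brake of NF-kB, was read at 39.3, 47.5 and 66.5 CPM at 24 h, against 89.7, 141 and 202 CPM at 6 h, a change of -1.51 ± 0.30 (edgeR adjusted p = 0.000414). Tnip1, its partner, fell by 0.73 ± 0.12 (edgeR adjusted p = 5.39e-05). Among 13 prostanoid and kinin genes 2 rose and 3 fell. Ptgs2, the inducible cyclooxygenase, was read at 538, 1481 and 1991 CPM at 24 h, against 3401, 4104 and 5965 CPM at 6 h, a change of -1.60 ± 0.42 (edgeR adjusted p = 0.00573). The 24 h libraries of Ptgs2 and Tnfaip3 lay below all 6 h libraries.

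**Figure D2:**
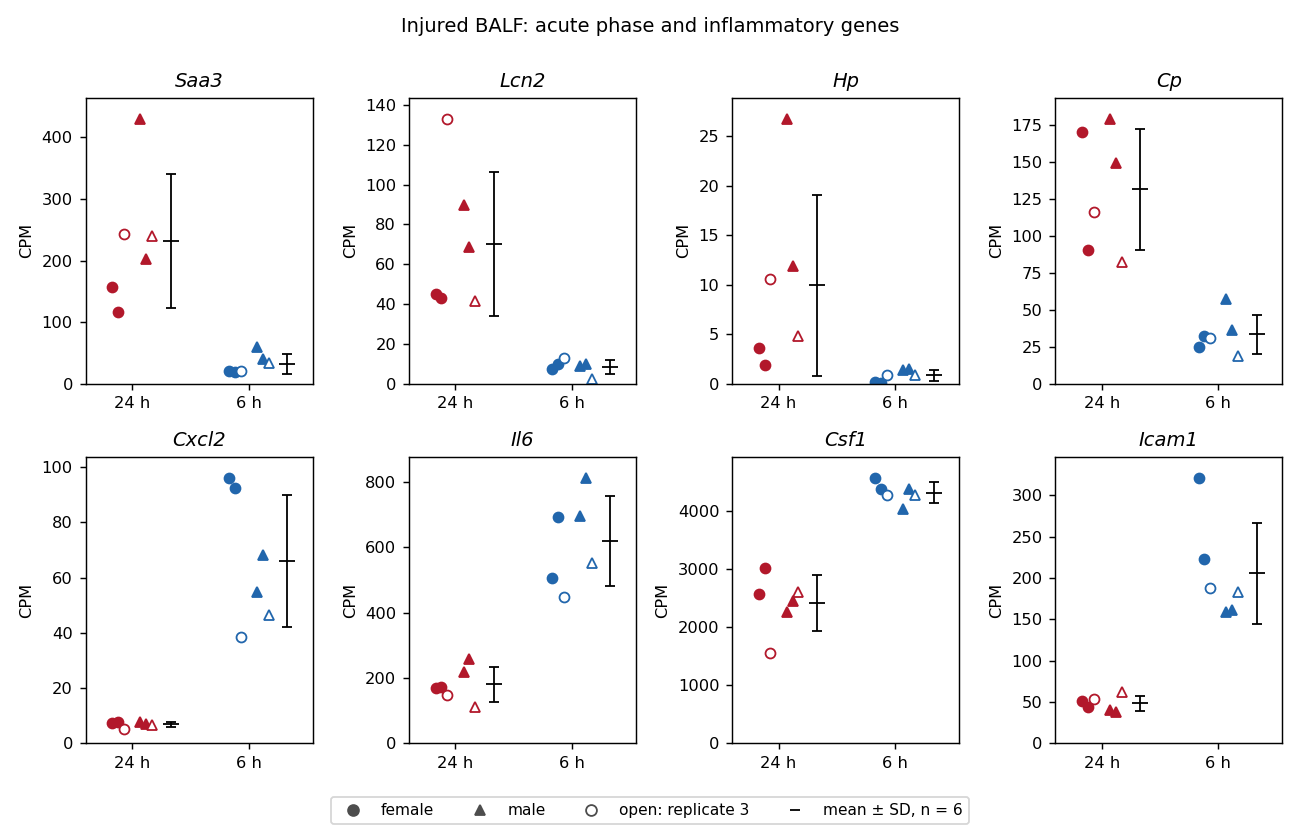
CPM of 8 genes in each injured BALF library at 24 h (red, left) and 6 h (blue, right), with circles for female, triangles for male, open symbols for replicate 3 and the mean ± SD of 6 libraries as bars. Saa3, Lcn2, Hp and Cp lie higher at 24 h, and Cxcl2, Il6, Csf1 and Icam1 lie lower.

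Some genes of growth factors that cells release after injury fell, in several families. Of 17 measured EGF family and epithelial repair genes 6 fell and 2 rose (Kitl and Fgf10), with a median of -0.42. Ereg, epiregulin, a ligand of the EGF receptor, was read at 81.0, 165 and 260.4 CPM at 24 h, against 752, 937 and 1093 CPM at 6 h, a change of -2.40 ± 0.39 (edgeR adjusted p = 4e-05). Hbegf, heparin-binding EGF, was read at 19.0, 40.9 and 46.3 CPM at 24 h, against 112, 148 and 180.4 CPM at 6 h, a change of -1.97 ± 0.30 (edgeR adjusted p = 2.3e-05). Btc, betacellulin, was read at 1.76, 3.29 and 3.51 CPM at 24 h, against 11.8, 15.4 and 17.2 CPM at 6 h, a change of -2.42 ± 0.27 (edgeR adjusted p = 2.87e-07). Every 24 h library of these 3 ligands lay below every 6 h library, and summed over the list the level was 1127 to 1266 CPM at 24 h, against 2129 to 2630 CPM at 6 h.

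Of 24 measured TGF-beta ligands, receptors and feedback genes 10 fell and 1 rose, with a median of -0.46. Inhba, the activin A subunit, was read at 60.6, 139 and 171 CPM at 24 h, against 421, 686 and 866 CPM at 6 h, a change of -2.35 ± 0.35 (edgeR adjusted p = 1.3e-05). Tgfb1, the ligand of the pathway, was read at 30.5, 41.0 and 47.8 CPM at 24 h, against 64.7, 73.5 and 89.2 CPM at 6 h, a change of -0.88 ± 0.25 (edgeR adjusted p = 0.0087). There was no overlap in either gene. Smad7, the inhibitory Smad, fell by 0.91 ± 0.25 (edgeR adjusted p = 0.00799). Tgfbr3, the co-receptor betaglycan, rose by 0.91 ± 0.30 (edgeR adjusted p = 0.0226), a call that ended without female 24 h replicate 3 (adjusted p = 0.0884), without male 6 h replicate 3 (0.062) and with libraries 1 and 2 summed (0.096).

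Of 18 measured PDGF, VEGF and angiopoietin genes 6 fell and 2 rose, with a median of -0.27. Pdgfb, the ligand by which endothelium recruits pericytes, was read at 1.12, 3.11 and 6.27 CPM at 24 h, against 12.3, 24.2 and 49.4 CPM at 6 h, a change of -2.93 ± 0.42 (edgeR adjusted p = 7.34e-06). Vegfa, the main angiogenic factor, was read at 197, 241 and 317 CPM at 24 h, against 353, 572 and 671 CPM at 6 h, a change of -1.14 ± 0.20 (edgeR adjusted p = 8.99e-05). Flt1, a VEGF receptor, was read at 29.3, 46.8 and 57.5 CPM at 24 h, against 76.3, 142 and 182 CPM at 6 h, a change of -1.62 ± 0.18 (edgeR adjusted p = 2.96e-07). All 24 h libraries of these 3 genes lay below all 6 h libraries.

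Vegfb, a VEGF relative, rose by 0.75 ± 0.11 (edgeR adjusted p = 6.73e-06). Angpt1, the angiopoietin that pericytes supply to endothelium, was read at 0.919, 1.66 and 5.19 CPM at 24 h, against 0.105, 0.254 and 1.89 CPM at 6 h, a change of 2.34 ± 0.58 (edgeR adjusted p = 0.00349), with overlapping times because male 6 h replicate 1 held the 1.89 CPM. Of 14 measured DUSP and Sprouty genes, feedback inhibitors of MAP kinases, 5 fell and 1 rose, and 2 or 3 fell without any 1 of 9 libraries and 2 with libraries 1 and 2 summed. Dusp5, which acts on nuclear ERK, stood at 9.27, 25.6 and 54.9 CPM at 24 h, against 64.5, 110.2 and 136 CPM at 6 h, a change of -1.86 ± 0.48 (edgeR adjusted p = 0.00441). AP-1 and early growth response factors had 2 of 18 up and 1 down, and NR4A and cAMP response genes 1 of 9 up and 0 down.

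Sterol synthesis was the list with the largest share of rising genes. All 24 measured enzymes and regulators rose, with a median of 1.22, and their summed level was 1799 to 2386 CPM at 24 h, against 942.2 to 1069 CPM at 6 h. Promoter windows of RefSeq (GRCm38.p6, 250 bases before to 50 after the annotated start) are shown for 3 members of the list, Insig1 and Nsdhl because they are among the genes with the lowest p, and Hmgcs1 because its window alone holds the letters of the sterol regulatory element. Capitals mark CCAAT, read as ATTGG on the other strand, and the letters TCACNCCAC. Insig1 lies at chr5:28071162-28071461, Nsdhl at chrX:72918271-72918570 and Hmgcs1 at chr13:119690101-119690400, each on the plus strand.
Insig1: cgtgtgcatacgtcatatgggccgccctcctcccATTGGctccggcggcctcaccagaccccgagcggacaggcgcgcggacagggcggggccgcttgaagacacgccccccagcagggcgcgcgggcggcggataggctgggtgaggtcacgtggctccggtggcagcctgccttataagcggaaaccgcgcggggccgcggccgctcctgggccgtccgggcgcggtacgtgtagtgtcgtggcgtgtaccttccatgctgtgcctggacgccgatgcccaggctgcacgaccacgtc
Nsdhl: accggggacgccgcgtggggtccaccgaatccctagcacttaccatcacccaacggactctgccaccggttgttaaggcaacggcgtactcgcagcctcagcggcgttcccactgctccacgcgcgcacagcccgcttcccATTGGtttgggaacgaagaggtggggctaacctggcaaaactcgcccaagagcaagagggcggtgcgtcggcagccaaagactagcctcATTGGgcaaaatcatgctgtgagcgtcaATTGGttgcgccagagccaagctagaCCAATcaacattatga
Hmgcs1: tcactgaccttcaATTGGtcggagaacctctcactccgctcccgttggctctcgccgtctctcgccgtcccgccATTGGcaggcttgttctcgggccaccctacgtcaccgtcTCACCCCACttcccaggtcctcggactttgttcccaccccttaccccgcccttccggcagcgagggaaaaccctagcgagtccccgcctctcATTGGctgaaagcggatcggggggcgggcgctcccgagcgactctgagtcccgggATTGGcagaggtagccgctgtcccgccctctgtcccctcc

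Of the 24 genes, 16 had a promoter in the RefSeq table, with 19 windows in all. CCAAT, searched on both strands, stood in 16 of the 19 windows, against 37.4% of 32851 windows of all genes. GGGCGG, the GC box, stood in 16 of 19 windows, against 35.7% of all. TCACNCCAC stood in 1 of 19, against 1.24%. These matches describe letters in the windows only.

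Insig1, which holds the SREBP complex in the endoplasmic reticulum and is itself an SREBP target, was read at 82.0, 96.7 and 117 CPM at 24 h, against 27.3, 28.4 and 33.3 CPM at 6 h, a change of 1.76 ± 0.13 (edgeR adjusted p = 1.14e-10). Fdft1, squalene synthase, was read at 85.5, 100.9 and 114 CPM at 24 h, against 26.9, 33.9 and 35.8 CPM at 6 h, a change of 1.60 ± 0.11 (edgeR adjusted p = 1.02e-10). Nsdhl, a sterol dehydrogenase, was read at 49.3, 59.4 and 66.0 CPM at 24 h, against 18.1, 20.2 and 21.5 CPM at 6 h, a change of 1.57 ± 0.13 (edgeR adjusted p = 1.26e-09). Every 24 h library lay well above every 6 h library in all 3.

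Hmgcs1, the synthase that feeds the pathway, was read at 135, 188 and 221 CPM at 24 h, against 63.0, 67.6 and 81.5 CPM at 6 h, a change of 1.42 ± 0.13 (edgeR adjusted p = 1.57e-08). The times separated in this gene too. With libraries 1 and 2 summed 23 of the 24 were called.

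Of 11 measured fatty acid synthesis genes 10 rose and 0 fell, with a median of 0.67 and a summed level of 2398 to 2789 CPM at 24 h, against 1260 to 1475 CPM at 6 h. Scd2, a desaturase that makes monounsaturated fat, was read at 715, 777 and 922 CPM at 24 h, against 173, 213 and 243 CPM at 6 h, a change of 1.93 ± 0.16 (edgeR adjusted p = 2.06e-09). Fads2, a desaturase of polyunsaturated fat, was read at 106, 128 and 153 CPM at 24 h, against 47.6, 57.1 and 64.7 CPM at 6 h, a change of 1.19 ± 0.12 (edgeR adjusted p = 8.49e-08). In the list of lipid droplet, PPAR and LXR targets 9 of 18 rose and 0 fell (5 with libraries 1 and 2 summed). Among them Cpt1a, which admits fatty acids to mitochondria, was read at 172, 208 and 256 CPM at 24 h, against 93.2, 106 and 114 CPM at 6 h, a change of 0.95 ± 0.09 (edgeR adjusted p = 2.13e-08). No 6 h library reached the lowest 24 h library of Scd2, Fads2 or Cpt1a.

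Genes of glycolysis and the response to low oxygen were higher at 24 h. Of 26 measured 20 rose, 1 fell and 5 did not pass, with a median of 0.58. Bnip3, a mitophagy receptor and HIF target, was read at 77.2, 172 and 252 CPM at 24 h, against 17.5, 29.5 and 36.8 CPM at 6 h, a change of 2.59 ± 0.27 (edgeR adjusted p = 6.71e-08). Ankrd37, a further HIF target, was read at 2.73, 5.12 and 5.52 CPM at 24 h, against 0.250, 0.615 and 0.728 CPM at 6 h, a change of 3.02 ± 0.26 (edgeR adjusted p = 4.54e-09). Slc16a3, which exports lactate, was read at 79.5, 203 and 218 CPM at 24 h, against 44.8, 59.3 and 75.4 CPM at 6 h, a change of 1.63 ± 0.20 (edgeR adjusted p = 1.23e-06). All 24 h libraries lay above all 6 h libraries in these 3 genes, although female 24 h replicate 2 held only 79.5 CPM of Slc16a3.

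Pdk1, a kinase that keeps pyruvate out of mitochondria, was read at 26.0, 66.2 and 112 CPM at 24 h, against 10.0, 18.5 and 25.1 CPM at 6 h, a change of 1.90 ± 0.30 (edgeR adjusted p = 3.37e-05). Pfkl, a phosphofructokinase, was read at 161, 282 and 392 CPM at 24 h, against 91.8, 121 and 137 CPM at 6 h, a change of 1.27 ± 0.20 (edgeR adjusted p = 3.33e-05). The oxygen sensors Egln3 and Egln1 rose by 1.44 ± 0.21 (edgeR adjusted p = 9.55e-06) and 0.99 ± 0.13 (edgeR adjusted p = 3.78e-06). The member that fell was Vegfa, a HIF target in many cells. Other genes of the strongest rises, outside this list, were Narf and Ddit4. Narf, a nuclear prelamin A recognition factor, was read at 21.7, 27.1 and 29.9 CPM at 24 h, against 2.96, 4.22 and 5.13 CPM at 6 h, a change of 2.66 ± 0.13 (edgeR adjusted p = 7.14e-14). Ddit4, an inhibitor of mTORC1, was read at 64.1, 86.3 and 186 CPM at 24 h, against 15.6, 20.01 and 23.3 CPM at 6 h, a change of 2.34 ± 0.31 (edgeR adjusted p = 3.21e-06). Neither overlapped between the times. Of 30 oxidative phosphorylation genes, 2 rose and 0 fell, with a median of 0.06.

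All 22 measured ribosome biogenesis genes fell, with a median of -0.76 and a summed level of 2450.0 to 3367 CPM at 24 h, against 4069 to 5092 CPM at 6 h. Polr1b, a subunit of RNA polymerase I, was read at 20.2, 26.4 and 28.1 CPM at 24 h, against 43.3, 51.5 and 65.4 CPM at 6 h, a change of -1.03 ± 0.11 (edgeR adjusted p = 9.02e-08). Noc3l, a factor of the large subunit, was read at 22.1, 29.1 and 33.5 CPM at 24 h, against 52.6, 54.6 and 58.3 CPM at 6 h, a change of -0.93 ± 0.09 (edgeR adjusted p = 3.93e-08). Neither overlapped between the times, and 21 of the 22 were called with libraries 1 and 2 summed.

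Cell cycle genes had calls in 1 direction, upward, and their number depended on the libraries. Of 29 measured G2 and mitosis genes 14 rose, 0 fell and 15 did not pass, with a median of 0.57 (4 rose with libraries 1 and 2 summed). Nusap1, a spindle protein, was read at 23.6, 33.5 and 37.9 CPM at 24 h, against 6.75, 16.2 and 20.6 CPM at 6 h, a change of 1.01 ± 0.23 (edgeR adjusted p = 0.00138). Bub1, a kinase of the spindle checkpoint, was read at 40.5, 45.2 and 52.0 CPM at 24 h, against 11.2, 28.0 and 32.1 CPM at 6 h, a change of 0.83 ± 0.21 (edgeR adjusted p = 0.00342). Ccnb2, a mitotic cyclin, was read at 26.5, 43.9 and 56.4 CPM at 24 h, against 6.09, 20.01 and 27.9 CPM at 6 h, a change of 1.18 ± 0.31 (edgeR adjusted p = 0.00563). The 24 h libraries lay above the 6 h libraries in Nusap1 and Bub1 and overlapped in Ccnb2, and male 6 h replicate 3 was low, with 11.2 CPM of Bub1.

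Cdk1, the kinase of mitotic entry, stood at 86.0, 94.4 and 119 CPM at 24 h, against 35.5, 79.5 and 93.7 CPM at 6 h, and its change of 0.41 ± 0.20 did not pass (edgeR adjusted p = 0.122). Without male 6 h replicate 2 the G2 and mitosis count was 23 and the adjusted p of Cdk1 0.0453, and without male 6 h replicate 3 the count was 9. With the replicate number as a block it was 22, and in the 12 injured BALF libraries alone with that block 29. Of 30 DNA replication and S phase genes 6 rose and 0 fell (3 with libraries 1 and 2 summed, 3 without both libraries of male replicate 3, 12 with the block), among them Tk1, thymidine kinase, at 32.1, 40.9 and 47.3 CPM at 24 h, against 9.54, 19.4 and 30.1 CPM at 6 h, a change of 1.10 ± 0.21 (edgeR adjusted p = 0.000202). Without female 6 h replicate 3 the S phase count was 18.

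Stress and clock lists moved in both directions. In the ATF4 amino acid response list 8 of 26 rose and 7 fell, with a median of 0.02 (3 fell with libraries 1 and 2 summed, and 4 without any 1 of 6 libraries: female 24 h replicates 1 and 2, male 24 h replicates 1 and 2, and female and male 6 h replicate 3). Stc2, a secreted stanniocalcin, was read at 8.24, 9.43 and 12.2 CPM at 24 h, against 3.54, 4.004 and 4.29 CPM at 6 h, a change of 1.28 ± 0.12 (edgeR adjusted p = 1.12e-08). Phgdh, the entry enzyme of serine synthesis, was read at 141, 149.5 and 180.0 CPM at 24 h, against 185, 229.9 and 272 CPM at 6 h, a change of -0.57 ± 0.10 (edgeR adjusted p = 0.000126). Nupr1, a small stress-induced nuclear protein, was read at 69.7, 83.2 and 106 CPM at 24 h, against 141, 213 and 287 CPM at 6 h, a change of -1.28 ± 0.23 (edgeR adjusted p = 0.000162). The times were apart in each, Stc2 upward and the other two downward.

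Of 18 p53 targets 7 rose and 1 fell, with a median of 0.20. Bbc3, the pro-apoptotic protein PUMA, was read at 10.4, 12.9 and 14.3 CPM at 24 h, against 3.54, 5.59 and 7.37 CPM at 6 h, a change of 1.18 ± 0.19 (edgeR adjusted p = 2.98e-05). Gdf15, a stress cytokine, was read at 5.55, 11.8 and 25.2 CPM at 24 h, against 2.63, 4.56 and 5.46 CPM at 6 h, a change of 1.60 ± 0.34 (edgeR adjusted p = 0.00072). Of 18 endoplasmic reticulum chaperones 6 fell and 0 rose, with a median of -0.07 (3 with libraries 1 and 2 summed), led by Dnajb9, a co-chaperone, at -0.82 ± 0.18 (edgeR adjusted p = 0.000906). Bbc3 and Gdf15 were higher in every 24 h library than in any 6 h library.

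Of 17 circadian clock genes 6 rose and 3 fell, with a median of 0.29. Cry1, a repressor of the clock, was read at 4.30, 5.69 and 7.76 CPM at 24 h, against 14.2, 14.8 and 18.6 CPM at 6 h, a change of -1.42 ± 0.14 (edgeR adjusted p = 1.99e-08). Clock, the activating subunit, was read at 56.0, 74.2 and 86.0 CPM at 24 h, against 92.2, 104.6 and 114 CPM at 6 h, a change of -0.51 ± 0.12 (edgeR adjusted p = 0.00265). Npas2, which can stand in for Clock, was read at 1.88, 2.20 and 3.30 CPM at 24 h, against 0.611, 0.783 and 1.03 CPM at 6 h, a change of 1.62 ± 0.26 (edgeR adjusted p = 4.3e-05). In these 3 the times did not overlap, whereas Arntl, the partner of both activators, was read at 21.8, 27.2 and 28.7 CPM at 24 h, against 22.1, 25.6 and 33.6 CPM at 6 h, with overlapping libraries and no call (edgeR adjusted p = 0.99). Nfil3, a repressor of clock output, rose by 0.96 ± 0.17 (edgeR adjusted p = 0.000149).

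Of 16 NRF2 targets 3 rose and 2 fell, with a median of 0.34 and 31.2% called, near the 27.0% of all genes tested. Of 11 metallothionein, zinc and iron genes 4 rose and 1 fell, with Tfrc, the transferrin receptor, at 83.6, 134 and 151 CPM at 24 h, against 62.5, 69.3 and 71.5 CPM at 6 h, a change of 0.88 ± 0.15 (edgeR adjusted p = 6.31e-05). Every 24 h library of Tfrc lay above every 6 h library. Peroxide and superoxide scavenging had 2 of 17 up and 1 down, cytosolic heat shock 2 of 15 up and 3 down, proteasome subunits 0 of 25 up and 2 down, and glucocorticoid receptor targets 1 of 11 up and 1 down. R-spondin and Wnt feedback genes had 2 of 18 up and 3 down. The shares of these 5 lists lie near or below the 12.8% and 14.2% of all genes, apart from the 3 falls among 15 heat shock genes.

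Of 16 measured contractile genes 7 fell, 0 rose and 9 did not pass, with a median of -0.61 and a summed level of 9657 to 15770.0 CPM at 24 h, against 17840.0 to 24540.0 CPM at 6 h. In bulk RNA, fewer cells of a type and less RNA per cell cannot be told apart. Acta2, smooth muscle actin, was read at 3228, 4712 and 5372 CPM at 24 h, against 5867, 8043 and 9691 CPM at 6 h, a change of -0.79 ± 0.18 (edgeR adjusted p = 0.00135). Tagln, an actin-binding protein of smooth muscle, was read at 1462, 2203 and 2527 CPM at 24 h, against 2971, 3427 and 3875 CPM at 6 h, a change of -0.67 ± 0.13 (edgeR adjusted p = 0.000323). Tpm1, a tropomyosin, was read at 1191, 1600.0 and 1729 CPM at 24 h, against 2246, 2449 and 2556 CPM at 6 h, a change of -0.65 ± 0.14 (edgeR adjusted p = 0.000727). No 24 h library of these 3 reached the lowest 6 h library. Cnn1, calponin, fell by 0.96 ± 0.23 (edgeR adjusted p = 0.00234), with 1 narrow overlap of the times. Mylk2, a myosin light chain kinase outside this list, was among the strongest falls of all genes, at 0.361, 0.850 and 0.988 CPM at 24 h, against 6.05, 7.87 and 9.22 CPM at 6 h, a change of -3.35 ± 0.38 (edgeR adjusted p = 2.87e-07), with no overlap.

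Of 15 YAP and TEAD targets 6 fell and 0 rose, with a median of -0.23. Fjx1, a secreted kinase-like protein of this list, was read at 5.66, 9.64 and 11.53 CPM at 24 h, against 16.7, 19.6 and 28.4 CPM at 6 h, a change of -1.16 ± 0.19 (edgeR adjusted p = 4.65e-05), and its times did not overlap. The contractile count was 2 without replicate number 2, and 6 with libraries 1 and 2 summed. In the 12 injured BALF libraries alone with the replicate block it was 11.

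Pericyte markers had calls in both directions, with 30.8% called, near the 27.0% of all genes tested. Of 13 measured 3 fell, 1 rose and 9, Pdgfrb among them, did not pass, and their summed level was 699 to 1042 CPM at 24 h, against 803.3 to 1316 CPM at 6 h. Cspg4, the NG2 proteoglycan, was read at 14.2, 34.5 and 56.6 CPM at 24 h, against 89.6, 202 and 270.1 CPM at 6 h, a change of -2.43 ± 0.37 (edgeR adjusted p = 1.78e-05). Trpc6, a calcium-permeable channel, was read at 0.472, 1.01 and 2.13 CPM at 24 h, against 6.41, 7.94 and 10.3 CPM at 6 h, a change of -2.95 ± 0.31 (edgeR adjusted p = 1.12e-07). Mcam, a surface adhesion molecule of perivascular cells, was read at 30.9, 59.1 and 78.8 CPM at 24 h, against 58.1, 142 and 180.3 CPM at 6 h, a change of -1.09 ± 0.32 (edgeR adjusted p = 0.011), a call lost with libraries 1 and 2 summed (adjusted p = 0.12). Notch3, a receptor of mural cells, was read at 16.6, 19.0 and 45.4 CPM at 24 h, against 8.91, 11.3 and 14.4 CPM at 6 h, a change of 1.04 ± 0.24 (edgeR adjusted p = 0.00204). The times separated in Cspg4 and Trpc6 downward and in Notch3 upward, where female 24 h replicate 3 held the 45.4 CPM, and they overlapped in Mcam.

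Lung fibroblast markers had 3 of 13 up and 1 down, with 30.8% called, near the 27.0% of all genes tested. Their summed level was 5785 to 10020.0 CPM at 24 h and 5919 to 10770.0 CPM at 6 h. Fmo2, a flavin monooxygenase on that list, was read at 1.75, 4.10 and 8.68 CPM at 24 h, against 0.520, 0.971 and 1.63 CPM at 6 h, a change of 2.23 ± 0.35 (edgeR adjusted p = 2.4e-05). Lung mesenchyme transcription factors had 4 of 19 up and 3 down. In the retinoic acid list 4 of 12 rose and 2 fell. Dhrs3, which reduces retinaldehyde, was read at 13.0, 31.4 and 85.1 CPM at 24 h, against 2.12, 4.69 and 6.78 CPM at 6 h, a change of 2.99 ± 0.33 (edgeR adjusted p = 2.25e-07). Rarb, a retinoic acid receptor and target, was read at 7.14, 16.2 and 23.4 CPM at 24 h, against 1.60, 3.97 and 7.54 CPM at 6 h, a change of 1.93 ± 0.31 (edgeR adjusted p = 3.02e-05). Aldh1a3, which makes retinoic acid, was read at 7.26, 10.8 and 13.7 CPM at 24 h, against 41.9, 94.1 and 112 CPM at 6 h, a change of -3.08 ± 0.28 (edgeR adjusted p = 1.15e-08). Dhrs3 was higher and Aldh1a3 lower in every 24 h library than in any 6 h library, and Rarb overlapped.

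Most collagen genes did not pass the test, with 23.8% called, near the 27.0% of all genes tested. Of 21 collagens 5 fell, 0 rose and 16 did not pass, with a median of -0.19 (2 fell with libraries 1 and 2 summed, and 3 without any 1 of 7 libraries). Col1a1, the main fibrillar collagen chain, was read at 5302, 7483 and 9301 CPM at 24 h, against 5468, 7557 and 10220.0 CPM at 6 h, a change of -0.07 ± 0.20 (edgeR adjusted p = 0.839). Col5a3, a minor chain of fibrils, was read at 50.4, 58.6 and 72.2 CPM at 24 h, against 198, 222 and 253 CPM at 6 h, a change of -1.91 ± 0.16 (edgeR adjusted p = 2.14e-09). Col6a3, a chain of microfibrils, was read at 229, 402 and 549 CPM at 24 h, against 564, 726 and 1144 CPM at 6 h, a change of -0.97 ± 0.19 (edgeR adjusted p = 0.000422). The 24 h libraries of Col5a3 and Col6a3 lay below all 6 h libraries, and those of Col1a1 overlapped throughout.

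Eln, elastin, was read at 6.70, 18.9 and 30.5 CPM at 24 h, against 33.2, 139 and 404 CPM at 6 h, a change of -2.96 ± 0.72 (edgeR adjusted p = 0.00268), 1 of 3 falls among 14 elastic fibre genes, of which 1 rose. The times did not overlap, and the adjusted p was 0.061 with libraries 1 and 2 summed. Dcn, decorin, which binds collagen fibrils, was read at 81.6, 129 and 191 CPM at 24 h, against 42.0, 53.3 and 75.4 CPM at 6 h, a change of 1.28 ± 0.25 (edgeR adjusted p = 0.000392), the 1 rise among 10 small leucine-rich proteoglycans, of which 2 fell. Every 24 h library of Dcn lay above every 6 h library. Of 8 lysyl oxidases and hydroxylases 2 fell, and of 13 laminins, nidogens and perlecan 1 rose and 2 fell. The called shares were 28.6% for elastic fibre genes, 30% for proteoglycans, 25% for lysyl oxidases and hydroxylases and 23.1% for the laminin list. All lie near the 27.0% of all genes tested.

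Genes of hyaluronan changed in both directions. Of 12 measured 3 rose and 6 fell, with a median of -0.12. The synthases Has2 and Has1 were lower: Has2 was read at 28.7, 51.5 and 71.9 CPM at 24 h, against 74.3, 174 and 204 CPM at 6 h, a change of -1.59 ± 0.36 (edgeR adjusted p = 0.00159). Has1 was read at 1.31, 2.51 and 4.04 CPM at 24 h, against 4.86, 9.36 and 20.3 CPM at 6 h, a change of -2.10 ± 0.41 (edgeR adjusted p = 0.000374). The 3 that rose were Cemip and Hyal1, which take part in its breakdown, and Hmmr, a hyaluronan receptor that also acts on the spindle, while Hyal2 and Cemip2, of the same families, were among the falls. Cemip was read at 1388, 1871 and 2263 CPM at 24 h, against 888, 1230.0 and 1306 CPM at 6 h, a change of 0.68 ± 0.14 (edgeR adjusted p = 0.000591). Hyal1 and Hmmr rose by 1.10 ± 0.14 (edgeR adjusted p = 2.7e-06) and 0.88 ± 0.22 (edgeR adjusted p = 0.00424). The times did not overlap in these 5 genes.

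Proteases and their inhibitors changed on both sides. Of 13 matrix metalloproteinases 4 rose and 1 fell, and of 13 TIMPs and ADAMTS proteases 4 rose and 2 fell. Timp3, a matrix-bound inhibitor, was read at 610.4, 756 and 1336 CPM at 24 h, against 1940.0, 2486 and 3524 CPM at 6 h, a change of -1.68 ± 0.19 (edgeR adjusted p = 2.48e-07). Adamts5, an aggrecan-cleaving protease, was read at 95.9, 159.5 and 199 CPM at 24 h, against 46.5, 76.4 and 80.0 CPM at 6 h, a change of 1.16 ± 0.17 (edgeR adjusted p = 1.24e-05). Mmp8, a collagenase known from neutrophils, was read at 3.27, 3.99 and 5.14 CPM at 24 h, against 0.771, 1.07 and 1.71 CPM at 6 h, a change of 1.86 ± 0.32 (edgeR adjusted p = 8.73e-05). The times were apart in all 3, downward only in Timp3, whose male 24 h replicate 3 stood high with 1336 CPM.

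**Figure D3:**
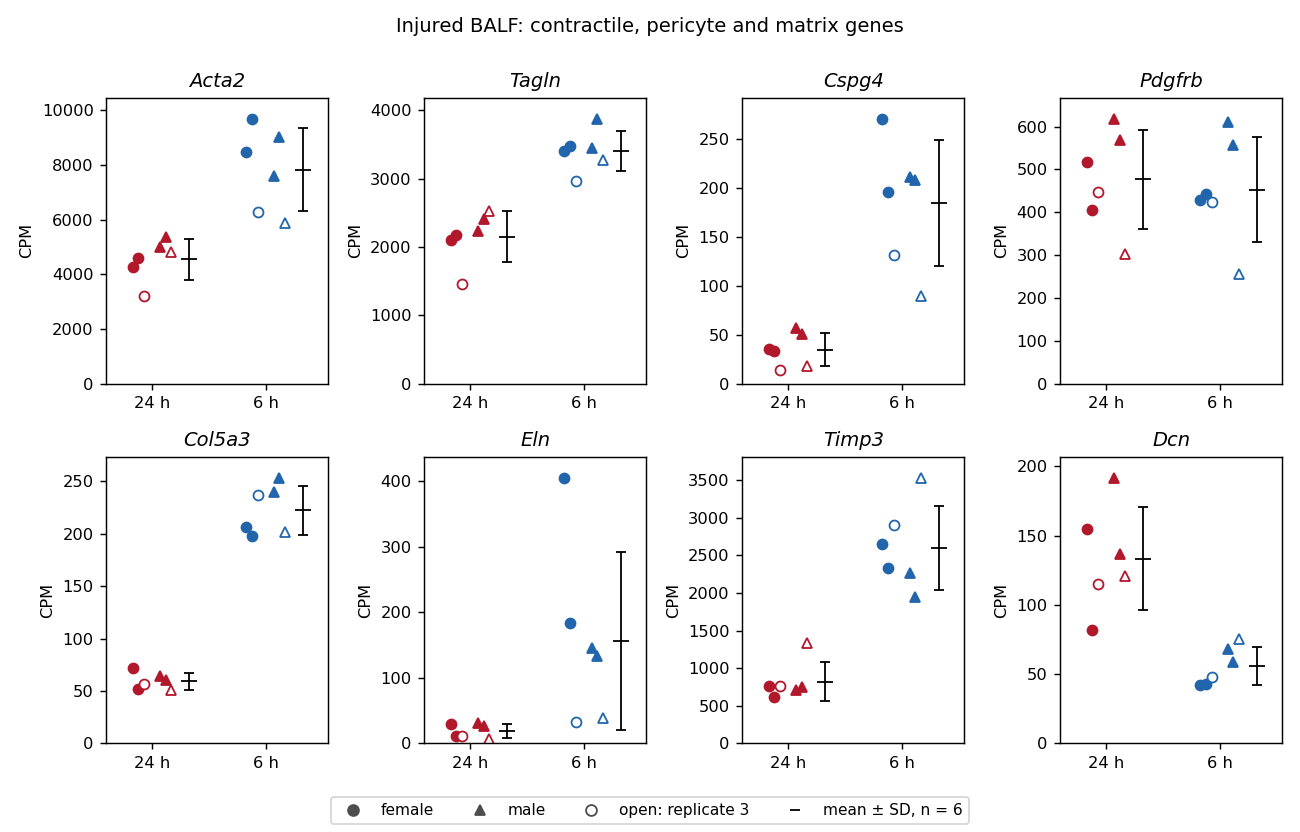
CPM of 8 genes in each injured BALF library at 24 h (red, left) and 6 h (blue, right), with circles for female, triangles for male, open symbols for replicate 3 and the mean ± SD of 6 libraries as bars. Acta2, Tagln, Cspg4, Col5a3, Eln and Timp3 lie lower at 24 h, Dcn lies higher, and Pdgfrb overlaps.

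Among the 12 largest rises and 12 largest falls, a few belong to none of the groups above. Tspan11, a tetraspanin, was read at 1.31, 13.6 and 23.8 CPM at 24 h, against 0.0742, 1.43 and 6.60 CPM at 6 h, a change of 2.74 ± 0.83 (edgeR adjusted p = 0.0148). Prl2c2, proliferin, a prolactin relative with near-identical copies among which reads may be split, was read at 23.9, 111 and 162 CPM at 24 h, against 7.54, 17.1 and 36.9 CPM at 6 h, a change of 2.16 ± 0.45 (edgeR adjusted p = 0.000727). Both genes overlapped between the times, and Tspan11 lost its call without female 24 h replicate 3 (adjusted p = 0.0553) and with libraries 1 and 2 summed (0.103).

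Serpinb2, an inhibitor of plasminogen activators, was read at 35.8, 47.7 and 79.2 CPM at 24 h, against 418, 539 and 733 CPM at 6 h, a change of -3.34 ± 0.47 (edgeR adjusted p = 6.64e-06). Sema7a, a membrane semaphorin, was read at 1.97, 16.5 and 27.1 CPM at 24 h, against 78.8, 123 and 169.8 CPM at 6 h, a change of -3.01 ± 0.53 (edgeR adjusted p = 0.000109). Pkp1, a desmosome protein, was read at 0.305, 0.772 and 1.32 CPM at 24 h, against 6.27, 10.8 and 17.7 CPM at 6 h, a change of -3.78 ± 0.55 (edgeR adjusted p = 9.56e-06). The times did not overlap in these 3 falls. Nppb, a natriuretic peptide, was read at 0.250, 0.937 and 2.10 CPM at 24 h, against 4.28, 7.76 and 12.4 CPM at 6 h, a change of -2.91 ± 0.41 (edgeR adjusted p = 6.84e-06). Nxph3, a neurexophilin, fell by 2.63 ± 0.37 (edgeR adjusted p = 5.83e-06). Ifi205, an interferon-inducible gene of a multigene family, was read at 0.0816, 0.546 and 2.61 CPM at 24 h, against 5.27, 8.26 and 12.2 CPM at 6 h, a change of -3.40 ± 0.52 (edgeR adjusted p = 1.94e-05). In these genes too every 24 h library lay below every 6 h library.

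Few markers of other cell types changed. None of 12 endothelial, 14 macrophage, 6 epithelial or 11 mesothelial marker genes measured was called, and the 4 haemoglobin genes Hba-a1, Hba-a2, Hbb-bs and Hbb-bt were at 0 in all 12 libraries, as were the T cell genes Cd3e, Cd3g and Cd8a. Macrophage markers summed to 67.8 to 87.2 CPM at 24 h and 68.5 to 97.9 CPM at 6 h. Neutrophil markers summed to 5.48 to 8.97 CPM at 24 h and 1.59 to 4.24 CPM at 6 h. Of 8 neutrophil markers 3 were measured and 1, Mmp8, rose. The part of other cells in the results was not tested. Mesothelial and epithelial markers were highest in male replicate 3 as given above, at both times.

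The same hours were also measured in uninjured BALF and in media only. In uninjured BALF 4881 genes changed (30.7%), 2418 up (15.2%) and 2463 down (15.5%), and in media only 1087 (6.84%), 558 up (3.51%) and 529 down (3.33%). Of the 2032 genes that rose in injured BALF 1354 also rose in uninjured BALF, which is 66.6% of the injured and 56.0% of the uninjured list, and 8 fell there. Of the 2263 that fell, 1593 also fell in uninjured BALF, 70.4% and 64.7% of the lists, and 3 rose there. With media only, 321 of the rises were shared (15.8% of the injured and 57.5% of the media list) and 378 of the falls (16.7% and 71.5%). The 3 treatments share no library but 1 fit gave each gene a common estimate of spread. With the replicate number as a block media only had 1770 calls, with libraries 1 and 2 summed 8, and without single media libraries or 1 replicate number 0 to 1974. Counts of mitochondrial genes made up 3.87% of female media 24 h replicate 1, against 1.2 to 2.05% in the other libraries. Its TMM factor, 0.874, was the lowest, and without this library media only had 1974 calls.

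The lists are set side by side here by their counts and medians. Sterol synthesis had 22 of 24 up in uninjured BALF (median 1.11) and 8 in media only (0.35). Glycolysis and hypoxia genes had 15 of 26 up and 1 down in uninjured BALF (0.44) and 2 up in media only (0.12). Ribosome biogenesis had 22 of 22 down in uninjured BALF (-0.77) and 16 in media only (-0.42). G2 and mitosis genes had 19 of 29 up in uninjured BALF (0.60) and 0 called in media only (0.10). Inflammatory cytokines had 6 of 8 down in uninjured BALF (-1.44) and 2 down and 1 up in media only (-0.72), and NF-kB subunits and IkB proteins 6 of 10 down and 1 up in uninjured BALF (-0.66) and 1 up in media only (0.07). Adhesion molecules had 7 of 11 down and 1 up in injured BALF (-0.93), against 4 down and 1 up in uninjured BALF (-0.17), and Icam1 alone of them passed the test of the difference between the fluids. Chemokines had 3 of 14 down in uninjured BALF (-0.24) and 0 called in media only (0.30), and none of the 14 passed that test. TGF-beta genes had 7 of 24 down and 1 up in uninjured BALF (-0.31), and 8 down and 1 up in media only (-0.30). EGF and repair genes had 8 of 17 down and 2 up in uninjured BALF (-0.49), and 3 down in media only (-0.03). Fatty acid synthesis had 9 of 11 up in uninjured BALF (0.60) and 4 in media only (0.19). Acute phase and defence genes had 2 of 14 up in uninjured BALF (0.91) and 0 called in media only (0.24). Of the TGF-beta, EGF and repair, fatty acid synthesis and acute phase lists, 1 EGF and repair gene alone passed that test. In the sterol list 1 gene, Pmvk, passed it. The contractile list had 0 of 16 down and 1 up in uninjured BALF (-0.16) and 0 called in media only (-0.11). No contractile gene passed the test of the difference between injured and uninjured BALF, so the counts of this list are not shown to differ between the fluids.

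**Figure D4:**
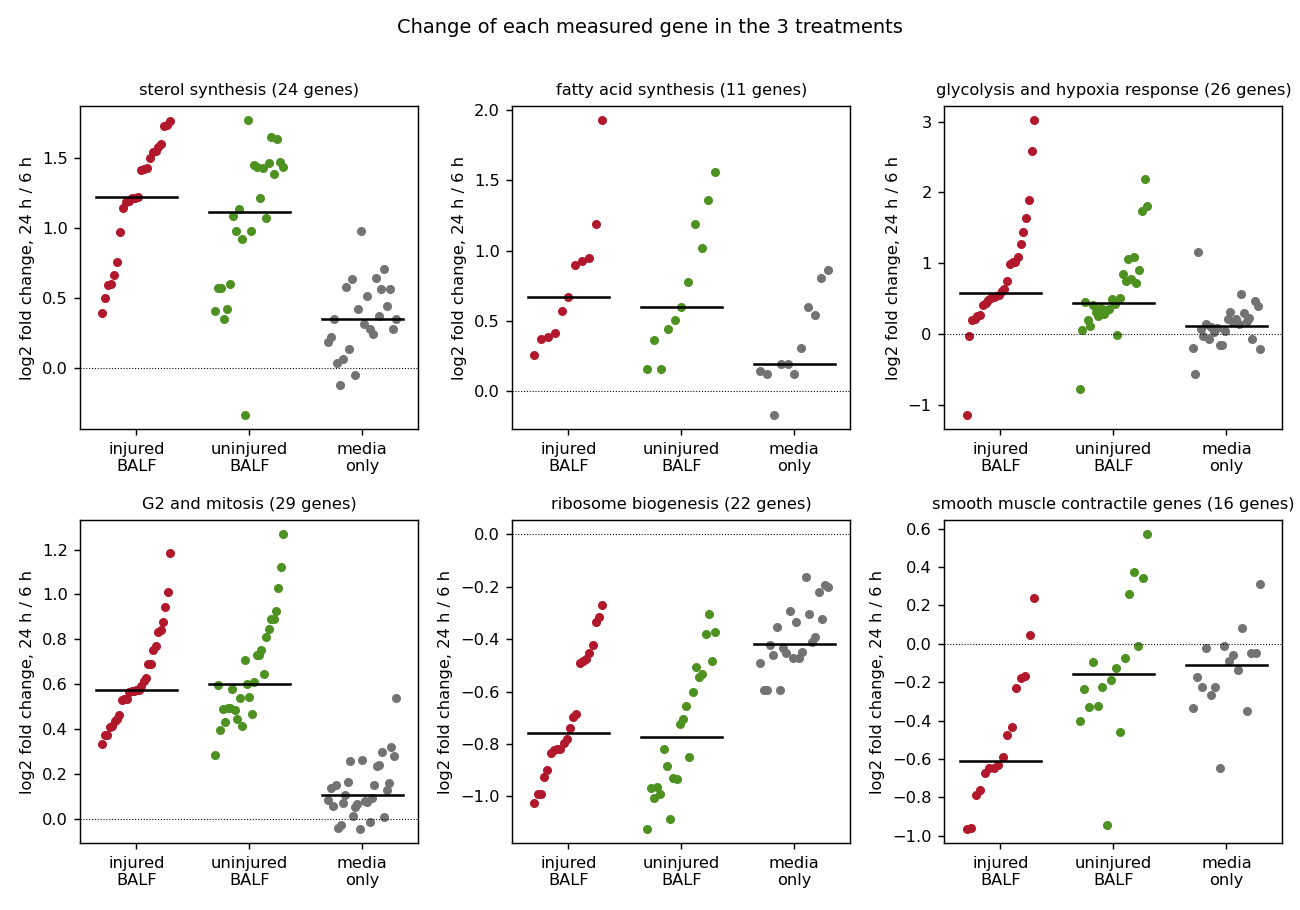
Log2 fold change (24 h over 6 h) of each measured gene of 6 lists in injured BALF (red), uninjured BALF (green) and media only (grey), with black lines at the list medians. Sterol genes lie around 1.22 and 1.11 in the 2 fluids and 0.35 in media only, and contractile genes around -0.61, -0.16 and -0.11.

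A test of the difference itself, the change in injured BALF minus the change in uninjured BALF, called 38 genes (0.239%), 24 upward (0.151%) and 14 downward (0.0880%). At an unadjusted p under 0.05 there were 1236 genes. The count depended on the libraries: it was 7 without male uninjured BALF 24 h replicate 1, 73 without male injured BALF 6 h replicate 3, 71 with the replicate block, 104 in DESeq2 and 0 with libraries 1 and 2 summed. Of the 13 named genes of this test Crem, Icam1 and Nrg1 kept their call without any 1 of the 24 libraries, and none kept it with libraries 1 and 2 summed.

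Icam1 changed by -2.06 ± 0.20 in injured BALF, whereas in uninjured BALF it was read at 13.9, 25.1 and 36.9 CPM at 24 h, against 18.6, 32.8 and 42.3 CPM at 6 h, a change of -0.30 ± 0.19 (edgeR adjusted p = 0.25). The difference was -1.76 ± 0.27 (edgeR adjusted p = 0.00248). Nrg1, neuregulin, a ligand of ERBB receptors, was read at 12.7, 14.3 and 16.4 CPM at 24 h, against 20.8, 21.3 and 23.8 CPM at 6 h in injured BALF, a change of -0.60 ± 0.14 (edgeR adjusted p = 0.00197). In uninjured BALF Nrg1 was read at 16.2, 18.8 and 25.5 CPM at 24 h, against 7.96, 10.5 and 16.9 CPM at 6 h, a change of 0.82 ± 0.14 (edgeR adjusted p = 7.56e-05), and the difference was -1.42 ± 0.20 (edgeR adjusted p = 0.00145). Nrg1 thus fell in injured and rose in uninjured BALF, and Icam1 overlapped between the times in uninjured BALF.

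Crem, a regulator of cAMP responses, was read at 13.3, 17.4 and 18.8 CPM at 24 h, against 8.66, 11.52 and 14.6 CPM at 6 h in injured BALF, a change of 0.55 ± 0.16 (edgeR adjusted p = 0.0134). In uninjured BALF Crem was read at 12.1, 14.2 and 15.1 CPM at 24 h, against 15.4, 30.6 and 34.0 CPM at 6 h, a change of -0.93 ± 0.16 (edgeR adjusted p = 8.69e-05), and the difference was 1.48 ± 0.23 (edgeR adjusted p = 0.00248). Crem lost its call in injured BALF, though not its direction, with libraries 1 and 2 summed (adjusted p = 0.108).

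Apart from Stc2, the other named upward differences belonged to genes that fell, or did not pass, in uninjured BALF. Procr, the protein C receptor, had a difference of 2.45 ± 0.52 (edgeR adjusted p = 0.0346), with 0.02 ± 0.36 in injured BALF and -2.43 ± 0.38 in uninjured BALF. Srxn1, sulfiredoxin, an NRF2 target, had a difference of 2.03 ± 0.45 (edgeR adjusted p = 0.0466), with -0.25 ± 0.31 and -2.28 ± 0.33. In the NRF2 list 2 of 16 genes fell in injured BALF and 10 in uninjured BALF, and 3 of the 16 passed the test of the difference upward. Nmnat2, an enzyme of NAD synthesis, had a difference of 1.95 ± 0.37 (edgeR adjusted p = 0.0211), and fell in both fluids, with -0.91 ± 0.26 in injured BALF (edgeR adjusted p = 0.154 with libraries 1 and 2 summed) and -2.86 ± 0.28 in uninjured BALF.

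Pmvk, phosphomevalonate kinase, was the 1 sterol gene with a difference, 1.54 ± 0.31 (edgeR adjusted p = 0.0322), at 1.21 ± 0.23 in injured BALF and -0.33 ± 0.22 in uninjured BALF. Arntl was not called in injured BALF and was read at 14.3, 22.6 and 27.4 CPM at 24 h, against 30.1, 54.4 and 74.4 CPM at 6 h in uninjured BALF, a change of -1.26 ± 0.18 (edgeR adjusted p = 9.73e-06) and a difference of 1.27 ± 0.26 (edgeR adjusted p = 0.0322). Stc2 rose in both fluids, with a difference of 0.74 ± 0.17 (edgeR adjusted p = 0.0466).

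Downward differences included AA467197, a gene given here by its symbol alone, at -1.81 ± 0.26 in injured BALF, 0.07 ± 0.27 in uninjured BALF and a difference of -1.88 ± 0.37 (edgeR adjusted p = 0.0273). Ccl9, a chemokine of myeloid cells, had a difference of -1.79 ± 0.37 (edgeR adjusted p = 0.0334), with -0.53 ± 0.26 in injured BALF (not called) and 1.26 ± 0.27 in uninjured BALF (called). Nupr1 and Flt1 had differences of -1.48 ± 0.33 (edgeR adjusted p = 0.0466) and -1.21 ± 0.26 (edgeR adjusted p = 0.0349), and both fell in injured BALF and were not called in uninjured BALF.

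**Figure D5:**
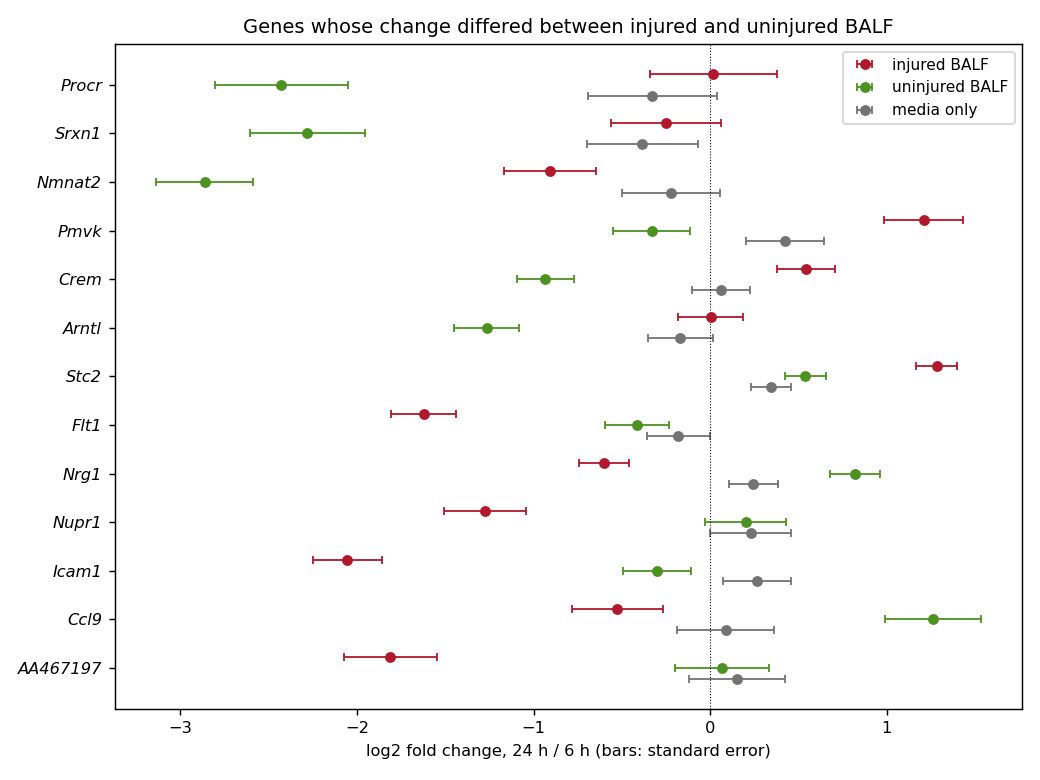
Log2 fold change (24 h over 6 h) of 13 genes in injured BALF (red), uninjured BALF (green) and media only (grey), with standard errors as bars. Procr and Srxn1 lie near 0 in injured and below -2 in uninjured BALF, and Icam1, AA467197 and Flt1 lie lowest in injured BALF.

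The change in injured BALF minus the change in media only was called for 414 genes (2.60%), 183 upward (1.15%) and 231 downward (1.45%). The count was 657 with the replicate block, 39 with libraries 1 and 2 summed, and 17 to 509 without single libraries or 1 replicate number. The 509 came without female media 24 h replicate 1. Upward, 14 of 24 sterol genes and 7 of 26 glycolysis and hypoxia genes passed, and downward 5 of 10 NF-kB subunits and IkB proteins, 3 of 11 adhesion molecules and 2 of 8 cytokines.

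Saa3 was read at 0, 1.33 and 2.12 CPM at 24 h, against 0.254, 2.88 and 5.85 CPM at 6 h in media only, a change of -0.92 ± 0.62 (edgeR adjusted p = 0.381), and the difference was 3.81 ± 0.78 (edgeR adjusted p = 0.00696). Il33 was read at 0.394, 1.39 and 8.31 CPM at 24 h, against 0.254, 0.563 and 1.43 CPM at 6 h in media only, a change of 1.66 ± 0.48 (edgeR adjusted p = 0.0367), and the difference was -3.93 ± 0.66 (edgeR adjusted p = 0.000869). Saa3 was lower in media only at every time than in injured BALF at 24 h, and Il33 rose in media only and fell in injured BALF. Narf and Bnip3 had differences of 2.36 ± 0.18 (edgeR adjusted p = 2.2e-09) and 2.19 ± 0.36 (edgeR adjusted p = 0.000587). Pdgfb had -2.56 ± 0.59 (edgeR adjusted p = 0.0157) and Aldh1a3 -2.39 ± 0.38 (edgeR adjusted p = 0.000491). Prl2c2 and Tnfrsf9, a TNF receptor family member, had 3.10 ± 0.69 (edgeR adjusted p = 0.0117) and 2.14 ± 0.50 (edgeR adjusted p = 0.0168), and Ifi205 and Icam1 -4.04 ± 0.77 (edgeR adjusted p = 0.0035) and -2.32 ± 0.27 (edgeR adjusted p = 1.34e-05). The call of Pdgfb ended without male media 24 h replicate 2 (adjusted p = 0.0506), and the other 9 of these 10 genes kept theirs without any single library. With libraries 1 and 2 summed 3 of the 10, Narf, Bnip3 and Icam1, kept the call and 7 lost it, with adjusted p of 0.0889 for Saa3, 0.0574 for Il33, 0.311 for Pdgfb, 0.0824 for Aldh1a3, 0.218 for Prl2c2, 0.167 for Tnfrsf9 and 0.15 for Ifi205.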

How the data were processed

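RNA was taken after 6 or 24 h of exposure and sequenced as stranded mRNA libraries, per the labels' protocols. The authors deposited a table of whole-number counts for 48795 genes and 36 libraries. STAR 2.5.2b, RSEM 1.2.31, DESeq2 and the GRCm38 build are named per the submitters' processing notes, with the part each played not given in the sources used here. So the values could be rounded estimates, in which reads of near-identical gene copies are shared. Symbols came from a GRCm38 annotation, with 48349 identifiers (99.1%) matched.

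12 groups (treatment by sex by time), 36 libraries in all, were fitted with edgeR 4.0.16 in R 4.3.3 (TMM factors 0.874 to 1.092, expression filter leaving 15901 genes, quasi-likelihood test, 24 residual degrees of freedom, Benjamini-Hochberg adjustment). The common biological coefficient of variation was 22.5%, and total counts per library were 17134840 to 35991683. A standard error is the log2 fold change over the root of F. Lists and members were chosen with earlier results of these data known. Named genes are the 12 largest rises and falls among called genes of at least 4 CPM, the 4 lowest p-values of each list, the 5 largest rises and falls of each difference, and a fixed set. A few others complete small counts. Some named genes are not reported here.

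Same-numbered libraries deviated together between the times (correlations 0.23 to 0.39 in female and 0.34 to 0.59 in male pairs, each matching its own number best). Numbers 1 and 2 were less distinct from each other than from number 3. Female replicate 1, for example, had 0.23 with its own number and 0.15 with number 2. The numbers may thus pair the libraries, but the main fit is not paired. The replicate block, with 4951 genes called in injured BALF, is given where it changes a call. In simulated counts of 15248 genes edgeR recovered 27, 43, 49 and 50 of 50 genes changed by 1.5, 2, 4 and 8-fold, with 5 false calls. The simulated libraries were drawn independently, without the closeness of libraries 1 and 2 or the shared deviation of same-numbered libraries. These counts therefore do not measure the errors of the test under that structure. Alternatives were other scalings and filters, DESeq2 1.42.0, stricter thresholds, the block, the 12 libraries alone, sex ignored, and left-out libraries. Leaving out single uninjured BALF and media libraries, leaving out 4 libraries of another description number range, and summing libraries 1 and 2 of each group were chosen after seeing the data. Promoter sequences are from RefSeq. Reads were not analysed here.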

Additional observations from a re-analysis of the deposited data

Results flagged for a closer look

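In 258 groups of 6 libraries, 18 values lay far from the other 5 by a test that flags about 1 group in 20 by chance. The 18 are not far above what that rate gives in 258 groups, so any single value may be a chance extreme. Female 24 h replicate 3 accounts for 7 of them. It held 271 CPM of Nos2 (17.5 to 52.6 in the other 24 h libraries), 628 of C3 (134 to 293), 186 of Ddit4 (64.1 to 106), 45.4 of Notch3 (16.6 to 21.0), 85.1 of Dhrs3 (13.0 to 37.6), 2.61 of Ifi205 (0.0816 to 0.821) and, as the lowest value, 60.6 of Inhba (135 to 171). Female 24 h replicate 2 was low in Slc16a3 with 79.5 CPM (174 to 218), and male 24 h replicate 3 high in Timp3 with 1340 (610.4 to 760). At 6 h, male replicate 3 was low in Fdft1 with 26.9 CPM (32.7 to 35.8), Bub1 with 11.2 (24.8 to 32.1) and Tfrc with 62.5 (68.3 to 71.5), and high in Procr with 233 (58.2 to 113). Female 6 h replicate 3 was low in Ankrd37 with 0.25 CPM (0.557 to 0.728), Hyal1 with 2.04 (2.63 to 2.93) and Cemip with 889 (1160 to 1310). Female 6 h replicate 1 was high in Cxcl16 with 102 CPM (70.4 to 78.7), and male 6 h replicate 1 high in Angpt1 with 1.89 (0.105 to 0.659).

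The change between the times differed between injured and uninjured BALF for 38 genes by edgeR's test of the difference. On the log2 scale the named differences, injured minus uninjured BALF, were 2.45 for Procr, 2.03 for Srxn1, 1.95 for Nmnat2, 1.54 for Pmvk, 1.48 for Crem, 1.27 for Arntl and 0.74 for Stc2. They were -1.88 for AA467197, -1.79 for Ccl9, -1.76 for Icam1, -1.48 for Nupr1, -1.42 for Nrg1 and -1.21 for Flt1. Between injured BALF and media only it differed for 414 genes, with 3.81 for Saa3, 3.10 for Prl2c2, 2.36 for Narf, 2.19 for Bnip3, 2.14 for Tnfrsf9, -4.04 for Ifi205, -3.93 for Il33, -2.56 for Pdgfb, -2.39 for Aldh1a3 and -2.32 for Icam1.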

How the results depend on the processing

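No named result that was called changed direction under any alternative run. None of the 4295 calls in injured BALF became a call in the opposite direction in the settings compared. Most settings reuse the same libraries, so such reversals were unlikely by construction. Changes of sign in named genes without a call were not counted. RLE scaling kept 4235 of them, DESeq2 4253, the replicate block 4270, upper quartile scaling 3841 and the sum of libraries 1 and 2 2836. Of 121 named genes called in injured BALF, 117 kept their call without each single injured BALF library and 112 with libraries 1 and 2 summed. Of the 13 genes named for a difference from uninjured BALF, 3 kept it without each single library and 0 when summed, and of the 10 named for a difference from media only 9 and 3. At an adjusted p under 0.01 the called genes were 2600 in injured BALF (1181 up, 1419 down), 3051 in uninjured BALF, 233 in media only, 7 for injured minus uninjured BALF and 132 for injured BALF minus media. At least 2-fold changes were 867 (538 up, 329 down), 1060, 165 and, for injured BALF minus media, 149. The 12 injured BALF libraries alone with the replicate block gave 6123 calls, 3115 of them rises. List counts there included 29 rises of G2 and mitosis genes, 14 of interferon-stimulated genes and 10 of acute phase and defence genes. Contractile genes had 11 falls there and collagens 9. Summed libraries 1 and 2 gave 1347 rises, 8 calls in media, 0 for injured minus uninjured BALF and 39 for injured BALF minus media. The replicate block gave 1770 calls in media, 71 for injured minus uninjured BALF and 657 for injured BALF minus media. Among list counts it moved by more than 1.5 times the 2 cell cycle lists and 8 counts of 5 or fewer, and among named genes it ended the call of Nos2 alone. DESeq2 gave 1634, 104 and 640 for the same comparisons and 1 for female minus male. Without the low-count filter media had 706 calls and injured BALF minus media 260, and without the 4 libraries of another number range 373 and 222. Leaving out single libraries or 1 replicate number gave 2028 to 4370 calls in injured BALF (948 to 2117 up, 1080 to 2253 down), 1943 to 5131 in uninjured BALF, 0 to 1974 in media, 0 to 233 for injured minus uninjured BALF, 17 to 509 for injured BALF minus media and 0 to 0 for female minus male. The cause of these shifts was not tested. Fewer libraries and fewer tested genes enter some of these settings by construction.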

Other observations

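11 genes were called in both fluids with opposite directions, and they are given here because of that, after their values were seen. Of the 8 that rose in injured and fell in uninjured BALF, 5 also passed edgeR's test of the difference. Prdx6, a peroxiredoxin, averaged 538 ± 156 CPM at 24 h and 368 ± 43.3 CPM at 6 h in injured BALF (mean ± SD, n = 6 each), and its log2 fold change was 0.55 there, against -0.38 in uninjured BALF. Pgd, of the pentose phosphate pathway, averaged 501 ± 144 CPM at 24 h and 353 ± 68.1 CPM at 6 h, with 0.49 against -0.45. Lrrk2, a large kinase, averaged 138 ± 12.5 CPM at 24 h and 108 ± 11.2 CPM at 6 h, with 0.35 against -0.49. Dusp18, a phosphatase, had 0.31 against -0.39, and Crem 0.55 against -0.93. Chst1, a sulfotransferase, had 0.73 against -0.75 and missed the test of the difference (edgeR adjusted p = 0.0809), as did Brinp3 and Trdc, both at low levels. Of the 3 with the other pattern, Nrg1 and Veph1 passed that test (edgeR adjusted p = 0.00145 and 0.0324), with -0.60 against 0.82 and -1.53 against 1.34. With libraries 1 and 2 summed no gene passed the test of the difference.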
